A study of Mus musculus with 13 samples.

Results

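Natural killer (NK) cells labelled LrNK, sorted from liver lymphocytes, were compared across all genes with NK cells labelled cNK, sorted from spleen cells. Both groups came from wild-type C57BL/6J mice aged 8 to 10 weeks, and the labels name no treatment or altered allele for either. The series holds 13 libraries, and the 7 used here are the 4 LrNK and 3 cNK libraries with the wild-type label; the other 6 carry the label CD8KO. LrNK libraries 2 and 4 differed by a chi-square per degree of freedom of 3.04 over genes, against 196 to 283 for every other wild-type LrNK pair, and were summed and counted as 1 sample. This left 3 LrNK samples (1, 2+4 and 3) against 3 cNK samples, 6 of the 11 samples of the series after such summing, and values below are given in that order. The wild-type cNK pairs differed by 9.48 to 18.1, nearer to the summed pair than to the other LrNK pairs, and were kept as separate samples. How independent the cNK samples are is therefore not known. Per the labels, every LrNK sample is from liver lymphocytes and every cNK sample from splenocytes, so the cell type and the organ cannot be told apart. The labels do not say that samples came from separate animals, so p-values measure only the spread between these samples.

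NK cells are innate lymphocytes that kill infected or transformed cells with granule proteins and secrete cytokines such as interferon gamma. In the mouse, a liver population that stays in the organ is known by the integrin CD49a (Itga1), the chemokine receptor CXCR6 and the transcription factor Hobit (Zfp683), whereas conventional NK cells circulate through blood and spleen and are known by the integrin CD49b (Itga2) and the transcription factor Eomes. Conventional NK cells also carry Ly49 receptors (the Klra genes), lectin-like proteins that bind MHC class I and either restrain or trigger killing. The markers used in the sort are not stated in the labels, so whether the proteins of Itga1 and Itga2 chose the cells is not known.

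The Ly49 genes lie side by side on mouse chromosome 6 as near copies, and the data below differ between them, so promoters of 4 of them are printed first. Each is the run of 250 bases before the start site, from RefSeq on GRCm38.p6, read 5′ to 3′ on the minus strand. Klra4 is at chr6:130067272-130067521, Klra8 at chr6:130129899-130130148, Klra3 at chr6:130337627-130337876 and Klra9 at chr6:130193113-130193362. Capitals mark bases that differ or have no partner when a pair is aligned end to end, Klra4 with Klra8 and Klra3 with Klra9. The first pair shared 84.4% of bases in the alignment (39 edits) and the other 82.4% (44 edits), while Klra4 and Klra3 shared 45.2%. The windows of Klra3 and Klra9 are offset. Most capitals at the start of Klra3 and the end of Klra9 therefore lie beyond the other window, and 82.4% understates the likeness of that pair.
Klra4: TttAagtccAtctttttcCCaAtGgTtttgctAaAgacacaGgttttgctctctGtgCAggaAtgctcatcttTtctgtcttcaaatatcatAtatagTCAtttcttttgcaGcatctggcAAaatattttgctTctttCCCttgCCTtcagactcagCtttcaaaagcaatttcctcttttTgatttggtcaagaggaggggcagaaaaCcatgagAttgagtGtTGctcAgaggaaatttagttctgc
Klra8: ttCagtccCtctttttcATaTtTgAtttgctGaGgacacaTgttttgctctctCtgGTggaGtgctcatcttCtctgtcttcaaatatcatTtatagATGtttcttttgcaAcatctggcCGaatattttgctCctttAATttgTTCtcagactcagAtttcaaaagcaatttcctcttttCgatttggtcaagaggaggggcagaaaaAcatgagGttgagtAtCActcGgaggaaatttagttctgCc
Klra3: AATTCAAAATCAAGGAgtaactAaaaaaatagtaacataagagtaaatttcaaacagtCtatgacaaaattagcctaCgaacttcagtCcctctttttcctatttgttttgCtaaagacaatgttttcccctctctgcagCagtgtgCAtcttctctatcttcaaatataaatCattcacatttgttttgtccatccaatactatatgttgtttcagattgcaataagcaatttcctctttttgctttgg
Klra9: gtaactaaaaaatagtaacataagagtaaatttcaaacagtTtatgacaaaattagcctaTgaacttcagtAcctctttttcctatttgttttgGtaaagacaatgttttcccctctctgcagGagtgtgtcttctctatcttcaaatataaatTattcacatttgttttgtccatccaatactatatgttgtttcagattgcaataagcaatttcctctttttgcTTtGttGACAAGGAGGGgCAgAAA

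The genes of the first pair had the larger falls of these 4. Likeness of promoters did not go with direction throughout the family. The promoter of Klra5 shared 64% of bases with Klra4 and 67.6% with Klra8, but Klra5 was 12.3-fold higher in LrNK. Klra4, encoding Ly49D, an activating receptor, had 0.752, 1.35 and 0 CPM in LrNK against 568, 602 and 589 CPM in cNK (CPM, the count scaled to library size but not to gene length). Klra8, encoding Ly49H, the activating receptor for a cytomegalovirus protein, had 7.43, 5.99 and 6.43 CPM in LrNK against 852, 800.3 and 892 CPM in cNK. LrNK samples lay far below cNK samples for both, with no overlap, and the fitted differences were 718-fold and 121-fold. Klra3, encoding the inhibitory Ly49C, had 12, 15 and 18.5 CPM in LrNK against 164, 178 and 189 CPM in cNK, an 11-fold difference. Klra9, encoding the inhibitory Ly49I, had 135, 132 and 129 CPM in LrNK against 429, 449.8 and 434 CPM in cNK, a 3.14-fold difference. The LrNK samples were again all below the cNK samples. Reads of such close copies can be assigned to the wrong member, and how the authors' counting treated them is not stated.

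The libraries held 30578631 to 42986589 counts in LrNK and 53519657 to 72716020 in cNK. LrNK libraries 1 and 3 had 15159 and 13917 detected genes, below the 19896 and 20002 of libraries 2 and 4 and the 22250 to 22778 of cNK. Even numbers made up 65.2% and 65.1% of the counts from 1 to 20 in LrNK libraries 2 and 4, 51% and 49.5% in libraries 1 and 3, and 61.9% to 63.2% in cNK, for which no reason is known. The spread between samples, as edgeR's common biological coefficient of variation, was 41.7% in LrNK and 8.9% in cNK. Of 10267 genes with a mean of at least 4 CPM, 816 (7.95%) varied at least 4-fold among the LrNK samples and 1 among the cNK samples. With LrNK samples 1 and 3 left out, only 1 LrNK sample remained and the spread could be taken only from cNK. Calls of that fit are therefore not counted here.

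Across the genome, 1797 genes were higher and 1617 lower in LrNK than in cNK (edgeR quasi-likelihood test, Benjamini-Hochberg adjusted p under 0.05), which is 20.7% of the 16456 genes tested (10.9% higher and 9.83% lower). These last 2 shares are the background for every list count below. The median log2 change over all tested genes was -0.08. Differences of at least 2-fold were found for 1272 of the higher and 922 of the lower genes, and of at least 16-fold for 434 and 328, with genes at 0 in a group taken at a floor of 3 counts over that group. The groups did not overlap for 1791 of the higher calls and for all 1617 lower calls, against 17% and 31.7% of all tested genes separated in that direction (48.7% in all). The limma voom fit with sample weights called 20.6% of the genes and shared 1648 of the higher and 1166 of the lower calls. Of the lower genes, 294 had no count in any LrNK library, and 225 of these averaged under 1 CPM in cNK; voom shared 163 of the 294. All 60 genes called higher with no cNK count were shared by voom. With any 1 cNK sample left out, 600 to 622 genes were called higher and 421 to 479 lower, and without LrNK sample 2+4 the counts were 2571 and 4285. In bulk samples, fewer cells of a kind and less RNA per cell cannot be told apart.

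**Figure D1:**
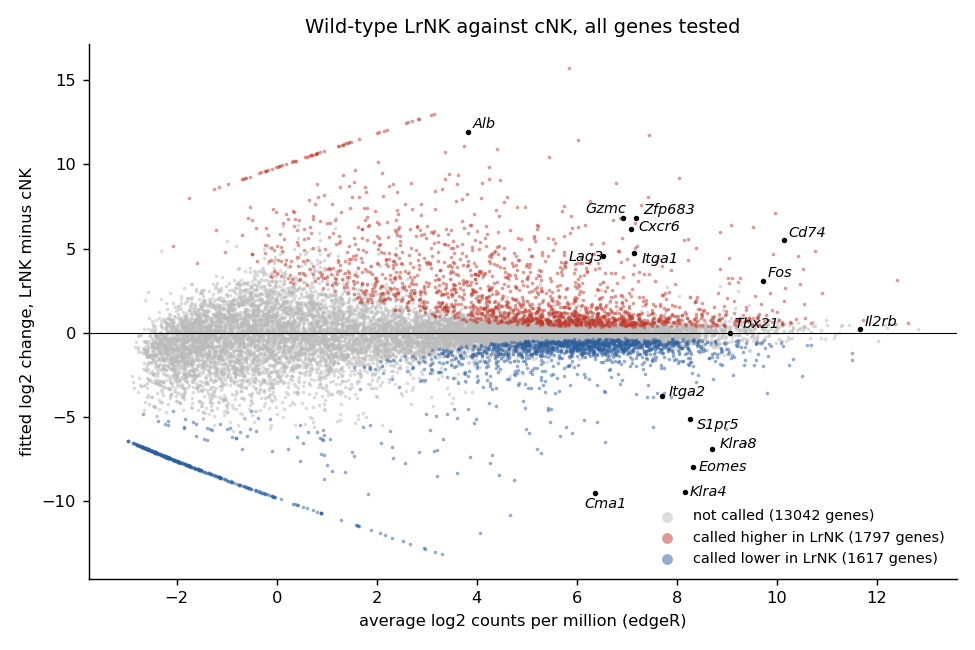
Each point is 1 of the 16456 genes tested, placed by its average log2 CPM over the 6 wild-type samples (horizontal) and its fitted log2 change, LrNK minus cNK (vertical). The 1797 genes called higher and 1617 called lower are coloured, and Eomes, Klra8 and Cma1 lie far below 0 while Zfp683, Gzmc and Alb lie far above it. The thin bands at the outer edges are genes without counts in 1 group, whose fitted change depends on the prior count.

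The 12 largest falls and the 12 largest rises come from called genes whose groups did not overlap and whose log2 CPM averaged 2 or more. The falls included genes that gave no LrNK read. Khdc1c, a germ-cell KH-domain family gene, had 0, 0 and 0 CPM in LrNK against 16.9, 17.4 and 21.3 CPM in cNK, at least 945-fold lower in LrNK. Rhpn1, a rhophilin, had 0, 0 and 0 CPM in LrNK against 17.2, 17.5 and 13.5 CPM in cNK, at least 841-fold lower. Clip4, a CAP-Gly domain protein, had 0, 0 and 0 CPM in LrNK against 15.8, 15 and 16.8 CPM in cNK, at least 815-fold lower. None of the 3 had a count in any LrNK library, and each was at similar levels in all cNK samples. Ccr3, the eotaxin receptor, had 0, 0 and 0 CPM in LrNK against 11.6, 6.61 and 9.3 CPM in cNK, at least 472-fold lower. Dpysl5 (at least 519.8-fold) and Clip3 (at least 432-fold) were also without LrNK counts. Elovl7, an elongase of long fatty acids, had 1 LrNK count in all, and the ratio of its levels was 5356 (95% interval from counting error 961 to 211571). Klhl30, a kelch-domain protein, had 0, 0.0544 and 0 CPM in LrNK against 48.6, 56 and 51.1 CPM in cNK. Cma1, a chymase best known from mast cells, had 0, 0.489 and 0 CPM in LrNK against 163, 188 and 154 CPM in cNK, and sample 2+4 was the only LrNK sample with counts. Phactr3 (-8.74) and Khdc1b (-8.52), given as fitted log2 changes, complete the 12 largest falls with Klra4.

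The largest rises included genes known from hepatocytes, macrophages and inflammation. Cxcl2, a chemokine that draws neutrophils, had 21.9, 85.8 and 228 CPM in LrNK against 0, 0 and 0 CPM in cNK, at least 6766-fold higher in LrNK. F13a1, the A subunit of coagulation factor XIII, a product of macrophages, had 25.8, 5.61 and 21 CPM in LrNK against 0, 0 and 0 CPM in cNK, at least 975-fold higher. F10, coagulation factor X made in liver, had 19.7, 6.25 and 24.1 CPM in LrNK against 0, 0 and 0 CPM in cNK, at least 938-fold higher. The LrNK samples differed several-fold among themselves for these genes while no cNK sample had a count. Alb, serum albumin of hepatocytes, had 1 cNK count in all and 34.7, 12.1 and 36.8 CPM in LrNK, a ratio of 4774 (95% interval from counting error 856 to 188598). Other rises without cNK counts were Bhmt, a methyltransferase of hepatocytes (at least 768-fold), Clec4f, a Kupffer cell lectin (at least 708-fold), Ccl2, a monocyte chemokine (at least 746-fold), Ptgs2, the inducible cyclooxygenase (at least 670.4-fold), Serpina1e, an antitrypsin gene (at least 536-fold), Arhgef37 (at least 468-fold) and Skint3 (at least 443-fold). Mmp9, the gelatinase of neutrophils and macrophages, had 423, 356 and 229.9 CPM in LrNK against 0.0583, 0.0825 and 0.187 CPM in cNK. Bhmt and Clec4f were lowest in sample 2+4 among the LrNK samples, as were the summed markers of hepatocytes and Kupffer cells given below, and the part of such cells in these rises was not tested.

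The genes with the smallest p-values had samples that lay close together within each group, and they were named after their values were seen. Klra8 came first (adjusted p = 1.6e-05) and Lag3, an inhibitory checkpoint described below, next (adjusted p = 2.2e-05). Ckb, the brain-type creatine kinase, had 235, 273 and 298 CPM in LrNK against 8.04, 8.31 and 9.36 CPM in cNK. Atp8a2, a phospholipid flippase, had 132, 138 and 104 CPM in LrNK against 1.78, 1.71 and 1.66 CPM in cNK. The LrNK samples of both genes were several-fold above every cNK sample. Tubb6 (a beta tubulin, log2 change 3.76), Slc16a10 (an aromatic amino acid transporter, 3.80) and Abcb9 (a lysosomal peptide transporter, 4.16) were also higher in LrNK. Among the falls, Lpin1, a phosphatidate phosphatase of lipid synthesis, had 35.1, 37.2 and 33.3 CPM in LrNK against 317, 316 and 314 CPM in cNK. Rasa3, a Ras and Rap GTPase-activating protein, had 108, 86.4 and 107 CPM in LrNK against 596, 606 and 610.2 CPM in cNK. Arhgef18, a guanine nucleotide exchange factor, had 108, 90.6 and 94.4 CPM in LrNK against 547, 543 and 563 CPM in cNK. The cNK samples differed little for these 3 genes and lay several-fold above the LrNK samples. Col8a2 (a collagen, log2 change -4.19) and Pdlim1 (a PDZ and LIM domain protein, -2.63) were lower as well.

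Genes known from the liver-resident program were higher in LrNK almost throughout. Of the 28 members tested, 24 were higher and 0 lower, with a median log2 change of 3.49 against -0.08 over all genes tested. Zfp683, encoding Hobit, had 324, 295 and 216 CPM in LrNK against 2.84, 2.17 and 2.82 CPM in cNK (log2 change 6.82 ± 0.25, adjusted p = 5.72e-05, values after ± being SE). Itga1, the collagen-binding integrin CD49a, had 369, 224 and 209 CPM in LrNK against 10.8, 11.3 and 9.996 CPM in cNK (log2 change 4.72 ± 0.25, adjusted p = 0.000164). Cxcr6, which holds lymphocytes in liver sinusoids through its ligand CXCL16, had 351, 203 and 233 CPM in LrNK against 4.5, 3.49 and 3.49 CPM in cNK (log2 change 6.17 ± 0.27, adjusted p = 7.92e-05). Every LrNK sample exceeded every cNK sample by more than 15-fold for these 3 genes, and the LrNK samples lay within 2-fold of each other. Tnfsf10, the death ligand TRAIL, had 420.1, 251 and 264 CPM in LrNK against 32.3, 28.4 and 28 CPM in cNK, an 11.1-fold difference. Cd69, which blocks the egress receptor S1PR1 and is also an activation marker, had 65.6, 476 and 181 CPM in LrNK against 26.9, 20.1 and 22.3 CPM in cNK, an 11.4-fold difference in which LrNK sample 2+4 stood well above the other LrNK samples. Tmem176b, a membrane protein abundant in innate lymphoid cells, had 266, 212 and 367 CPM in LrNK against 8.82, 7.82 and 8.02 CPM in cNK. Its neighbour Tmem176a had a log2 change of 4.67, Itgb3 one of 2.04, and Thy1, the surface glycoprotein CD90, one of 0.89. The list was drawn from what is known of these cells, so its direction is not independent evidence. Of the genes called here, Cd69 and Thy1 did not pass the test when any 1 of the 3 cNK samples was left out.

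**Figure D2:**
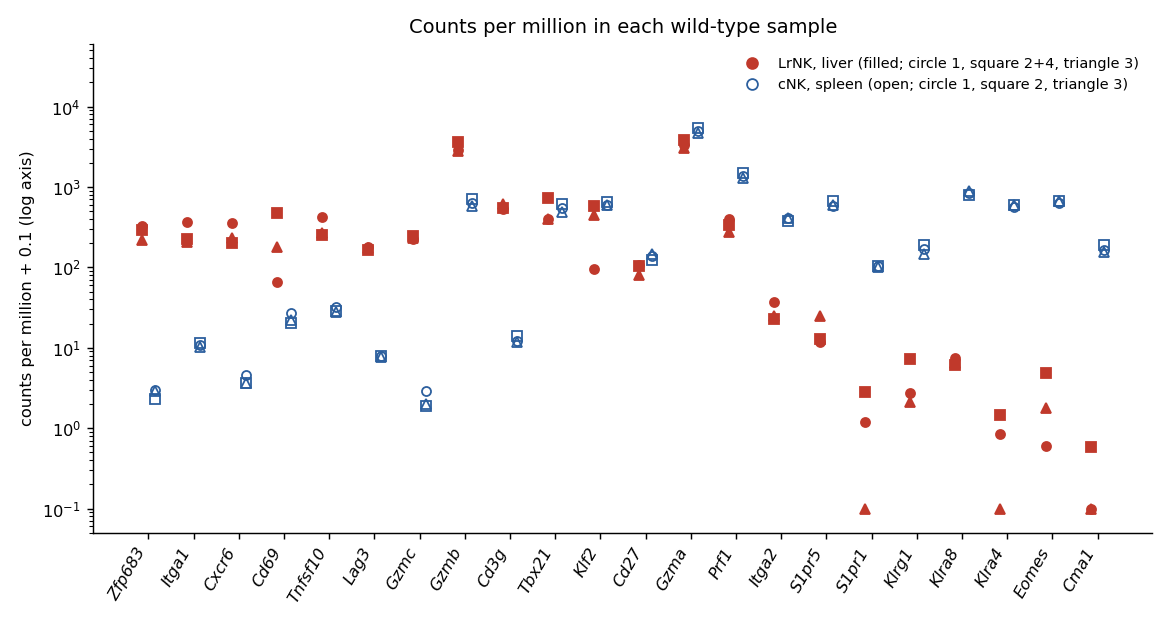
CPM plus 0.1 (log axis) of 22 genes in each wild-type sample: filled symbols are the 3 LrNK samples and open symbols the 3 cNK samples, with the same shape for the same sample number. The groups are far apart for Zfp683, Cxcr6, Eomes and Klra4 and overlap for Tbx21, and LrNK sample 2+4 stands above the others for Cd69.

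Zfp683, Hic1 and Ahr were among the transcription factors that rose, while Eomes fell nearly to 0 in LrNK. The list gave 12 higher and 9 lower of 34, with a median log2 change of -0.06. Eomes, the T-box factor that keeps conventional NK cells in their mature state, had 0.494, 4.73 and 1.66 CPM in LrNK against 639.7, 670.1 and 664 CPM in cNK (log2 change -7.99 ± 0.86, adjusted p = 0.00204). Tbx21, encoding T-bet, the other T-box factor of NK cells, had 402, 734 and 400.1 CPM in LrNK against 547, 605 and 494 CPM in cNK, with overlapping groups and an adjusted p of 1. Id3, an inhibitor of E proteins, had 46.1, 45.5 and 111 CPM in LrNK against 1.28, 1.5 and 1.48 CPM in cNK. Hic1, a zinc finger repressor, had 244, 290.01 and 179 CPM in LrNK against 9.52, 13.3 and 13.8 CPM in cNK. Ahr, the aryl hydrocarbon receptor that maintains tissue innate lymphoid cells, had 50.1, 65.9 and 75.1 CPM in LrNK against 8.1, 5.89 and 7.44 CPM in cNK. All LrNK samples were above all cNK samples for Id3, Hic1 and Ahr. Bcl11b, a factor of the T cell and innate lymphoid lineages, was 6.9-fold higher, and Gata3 1.81-fold higher. Among the falls, Tcf7, the TCF-1 factor of early lymphocytes, had 83.8, 86.1 and 68.1 CPM in LrNK against 353, 332 and 378 CPM in cNK, a 4.2-fold difference. Klf3 was 4.24-fold lower, and Zeb2, which drives terminal NK maturation, had 50.3, 31.3 and 91.7 CPM in LrNK against 233, 239.9 and 237 CPM in cNK. Runx2 (2.62-fold) and Prdm1, encoding Blimp-1 (1.996-fold), were also lower. The call of Zeb2 ended with some cNK samples left out.

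T-bet and Eomes bind T-box elements, and Prf1 and Gzma are genes of the killing machinery. Prf1 was called lower. Gzma was not called by edgeR (log2 change -0.48, adjusted p = 0.0904), but DESeq2 called it lower (adjusted p = 0.0123), as did edgeR with all 4 groups of the series in the fit (log2 change -0.52, adjusted p = 0.0295) and without LrNK sample 2+4 (log2 change -0.62, adjusted p = 0.0143), so its call depends on the setting. For both genes the 250 bases before their start sites are printed next, with the T-box core AGGTGT or its reverse complement ACACCT in capitals. Prf1 is at chr10:61297586-61297835 on the plus strand and holds the core 19 to 24 bases before its start. Gzma is at chr13:113100982-113101231 on the minus strand and holds it in the reverse direction, 75 to 80 bases before its start. Both are from RefSeq on GRCm38.p6.
Prf1: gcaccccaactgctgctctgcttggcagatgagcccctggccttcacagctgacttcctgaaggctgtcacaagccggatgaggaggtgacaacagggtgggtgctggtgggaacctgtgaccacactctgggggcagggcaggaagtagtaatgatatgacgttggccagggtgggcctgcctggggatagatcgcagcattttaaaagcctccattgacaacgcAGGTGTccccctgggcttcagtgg
Gzma: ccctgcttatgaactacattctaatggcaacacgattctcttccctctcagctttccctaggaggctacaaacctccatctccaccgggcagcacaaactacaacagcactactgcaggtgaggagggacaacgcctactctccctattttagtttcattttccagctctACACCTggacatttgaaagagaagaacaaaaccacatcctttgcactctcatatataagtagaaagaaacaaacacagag

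The core, on either strand, was in 12.1% of the 1310 higher, 10% of the 1148 lower and 12.1% of the 8152 uncalled genes with a promoter entry. It was in 11.9% of the 10610 tested genes with an entry and in 13.6% of all 27025 genes with an entry. The KLF core CCACACCC, searched because KLF factors control egress genes, was in 5.27% of the higher, 4.88% of the lower and 3.88% of the uncalled genes. Among tested genes with an entry its share was 4.16%, and among all genes with an entry 3.68%. A match is only a run of letters in this window. The 2 cores share letters, but neither holds the other. Of the 225 genes named by rule, 163 had a promoter entry, and the T-box core was in 14 of them, among them Cd3g, Tnf and Ltb, and the KLF core in 10, among them Itga4, Il18r1 and Tcf7.

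Genes of the conventional program fell in the main. Of 26 tested members 18 were lower and 2 higher, with a median log2 change of -1.69; the 2 higher members were Dusp6, a phosphatase that ends ERK signalling (2.20), and Itgb7, an integrin beta chain of gut homing (0.74). The terminal maturation list, which shares members with it, gave 11 lower and 1 higher of 17 (median -1.15), and the higher member was Gzmb. Itga2, CD49b, had 36.5, 22.8 and 24.9 CPM in LrNK against 405, 380.3 and 406 CPM in cNK (log2 change -3.75 ± 0.19, adjusted p = 0.00014). Itgam, CD11b, which is gained late in NK maturation, had 25.1, 14.2 and 35.6 CPM in LrNK against 207, 229 and 204 CPM in cNK (log2 change -3.03 ± 0.30, adjusted p = 0.00155). Klrg1, an inhibitory lectin receptor of terminally mature cells, had 2.61, 7.19 and 1.998 CPM in LrNK against 169.6, 189.7 and 148 CPM in cNK (log2 change -5.29 ± 0.57, adjusted p = 0.00207). No LrNK sample reached the level of any cNK sample for these 3 genes. Without 1 cNK sample the terminal list gave 1 higher and 8 to 9 lower, and without 1 LrNK sample 1 to 2 higher and 10 to 12 lower. Any 1 cNK sample left out ended the call of Itgb7.

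Genes tied to earlier NK stages did not move together: 9 of 20 were higher and 5 lower, with a median log2 change of 0.04. Cd27, the TNF receptor of immature NK cells whose ligand is CD70, had 107, 103 and 79.6 CPM in LrNK against 138, 122 and 147 CPM in cNK, with an adjusted p of 0.125 and a log2 change of -0.41 ± 0.16. Cd7, an early lymphoid surface protein, had 1439, 1622 and 1461 CPM in LrNK against 319, 317 and 315 CPM in cNK. Il7r, the receptor of interleukin-7, had 104, 89.8 and 63.2 CPM in LrNK against 49, 36.6 and 48.3 CPM in cNK. Both were higher in LrNK, in every sample. Ltb (lymphotoxin beta, 1.83) and Cxcr3, a chemokine receptor (1.73), given as log2 changes, were higher too. Kit, the stem cell factor receptor, had 24.1, 20.8 and 18.7 CPM in LrNK against 76.7, 73.3 and 85.6 CPM in cNK. Lef1, a partner of TCF-1, was 4.62-fold lower and Ctla2a, a cysteine protease inhibitor, 5.8-fold lower. The list counts became 6 to 7 higher and 4 lower without 1 cNK sample. Each fit with 1 cNK sample less ended the call of Il7r. So did the fit without LrNK sample 1 for Il7r.

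Receptors that let lymphocytes leave tissue fell, and several chemokine receptors rose. S1pr1, which draws cells along sphingosine-1-phosphate into blood and lymph, had 1.08, 2.69 and 0 CPM in LrNK against 104, 104 and 101.4 CPM in cNK. S1pr5, its NK-specific relative, had 11.8, 12.7 and 24.9 CPM in LrNK against 582, 665 and 589.8 CPM in cNK. The LrNK samples were close to 0 for S1pr1 and far below cNK for S1pr5, with fitted falls of 71.4-fold and 35.4-fold. S1pr4 was 2.42-fold lower. Ccr7, the lymph node homing receptor, had 3.83, 3.79 and 12 CPM in LrNK against 1.03, 1.33 and 0.803 CPM in cNK and was higher. Gpr34, a lysophosphatidylserine receptor, had 60.1, 33.6 and 17.7 CPM in LrNK against 2.46, 2.04 and 2.54 CPM in cNK, and Xcr1, the receptor for XCL1 known from cross-presenting dendritic cells, had 8.46, 4.81 and 4.18 CPM in LrNK against 0.204, 0.193 and 0.187 CPM in cNK; LrNK samples were higher for both. Klf2, the factor that switches on S1pr1, had 95, 578 and 443 CPM in LrNK against 589.5, 658 and 593 CPM in cNK with an adjusted p of 0.545, and LrNK sample 1 was far below the other LrNK samples. The list as a whole gave 7 higher and 4 lower of 18 (median 1.19), and without 1 cNK sample 5 higher and 2 to 3 lower. The calls of Ccr7 and S1pr4 ended with any 1 cNK sample left out, and some of these fits also ended that of S1pr1.

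Adhesion genes went both ways: 8 of 24 adhesion genes were higher and 9 lower (median -0.13). Besides Itga1 and Itga2, Itga4, the alpha chain of VLA-4, had 142, 106 and 155 CPM in LrNK against 1713, 1673 and 1732 CPM in cNK (log2 change -3.59 ± 0.15, adjusted p = 7.76e-05). Cd2, an adhesion receptor for CD48, was 3.43-fold lower. Cdh1, E-cadherin, had 47.4, 27.6 and 18 CPM in LrNK against 0.437, 0.33 and 0.71 CPM in cNK. Epcam, an epithelial adhesion protein, had 17, 13.4 and 28.2 CPM in LrNK against 0.539, 0.481 and 0.598 CPM in cNK. All 3 LrNK samples were above the cNK samples for both. Both proteins are also made by epithelium of the liver, whose part was not tested. With 1 cNK sample left out, the list counts were 4 to 5 higher and 8 lower.

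Most of the Ly49 family was lower. Of 13 family members tested, pseudogenes included, 10 were lower, 2 higher and 1, Klra17, not called (log2 change 3.31, adjusted p = 0.214), with a median log2 change of -3.46. Klra1, encoding Ly49A, an inhibitory receptor, had 6.32, 5.93 and 7.99 CPM in LrNK against 69.5, 70.8 and 71.4 CPM in cNK (log2 change -3.31 ± 0.15, adjusted p = 9.84e-05). Klra7, encoding the inhibitory Ly49G, had 31.9, 21.3 and 18.2 CPM in LrNK against 339.9, 363 and 362 CPM in cNK (log2 change -3.82 ± 0.23, adjusted p = 0.000223). Both were lower in every LrNK sample, as Klra4, Klra8, Klra3 and Klra9 were. Klra5, encoding Ly49E, which fetal and liver NK cells are known to keep, had 125, 147 and 124 CPM in LrNK against 11.2, 11.7 and 11.4 CPM in cNK (log2 change 3.62 ± 0.15, adjusted p = 7.76e-05). Klra2, encoding Ly49B, a receptor known from myeloid cells, had 29.5, 9.05 and 58.2 CPM in LrNK against 0.845, 0.536 and 0.99 CPM in cNK (log2 change 5.41 ± 0.73, adjusted p = 0.00434). LrNK samples were above cNK samples for these 2 genes, but Klra2 ranged from its lowest value in sample 2+4 to its highest in sample 3, the same order as the summed Kupffer cell markers below, and the part of such cells was not tested.

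Among the lectin receptors of the CD94, NKG2 and NKR-P1 families, 8 of 15 were lower and 2 higher (median -0.47). Klrc3, NKG2E, had 14.8, 17.5 and 12.8 CPM in LrNK against 95, 77.7 and 112 CPM in cNK. Klrc2, the activating NKG2C, had 233, 245 and 213 CPM in LrNK against 679, 611 and 731 CPM in cNK. Klri2, a partner chain of KLRE1, had 221, 191 and 198 CPM in LrNK against 697, 656 and 698 CPM in cNK. All 3 were lower in every LrNK sample. Klrb1b, the inhibitory NKR-P1B, had 506, 519 and 505 CPM in LrNK against 147, 146 and 135 CPM in cNK and was 3.79-fold higher. Klrc1, the inhibitory NKG2A, had 754, 609 and 619.9 CPM in LrNK against 544, 485 and 486 CPM in cNK, a log2 change of 0.47, and was called by edgeR but not by voom. Klrd1, encoding CD94, had 617, 622 and 671 CPM in LrNK against 701, 707 and 753 CPM in cNK with an adjusted p of 0.599, and Klrb1c, encoding NK1.1, had 617, 592 and 443 CPM in LrNK against 772, 837 and 824 CPM in cNK with an adjusted p of 0.0962. The list counts were 1 higher and 4 lower when 1 cNK sample was left out. Any 1 cNK sample left out ended the call of Klrc1. The same held without LrNK sample 1 for Klrc1.

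Activating receptors and adaptors showed 5 higher and 4 lower of 22 (median 0.27). That is 22.7% and 18.2%, against 10.9% and 9.83% over all genes. Cd3g, a chain of the T cell receptor complex, had 538, 542 and 621 CPM in LrNK against 12.2, 13.7 and 11.8 CPM in cNK (log2 change 5.57 ± 0.14, adjusted p = 2.53e-05), the third smallest p of all genes. Cd3e, another chain of that complex, had 27.6, 14.1 and 34.1 CPM in LrNK against 3.9, 3.82 and 3.18 CPM in cNK (log2 change 2.86 ± 0.35, adjusted p = 0.00293). LrNK samples were above cNK samples for both, and Cd3g was at much the same level in all LrNK samples while Cd3e was lowest in sample 2+4. Cd8b1, the beta chain of CD8 on T cells, had no LrNK count, and 11 of 15 T cell markers were higher, with summed levels of 1626, 1986 and 1994 CPM in LrNK and 623 to 686 CPM in cNK; these sums include Cd3g itself, and the part of T cells was not tested. The T cell list gave 6 higher and 1 lower without 1 cNK sample. Cd160, an activating receptor for MHC class I-like proteins, had 526, 431 and 510.2 CPM in LrNK against 122, 115 and 119.8 CPM in cNK. Cd226, DNAM-1, had 259, 201 and 169.7 CPM in LrNK against 76, 64.5 and 57.5 CPM in cNK. Sh2d1a, the adaptor SAP of SLAM family receptors, had 4.68, 2.32 and 3.84 CPM in LrNK against 89.8, 90.2 and 84.6 CPM in cNK. Cd160 and Cd226 were higher in every LrNK sample, and Sh2d1a was lower in every one. Ncr1, NKp46, had a log2 change of -0.78, Cd247, the CD3 zeta chain, one of -0.98 and Crtam one of -1.29. Fits that lacked 1 cNK sample gave 4 higher and 1 to 2 lower for the list. Each fit with 1 cNK sample less ended the calls of Cd247 and Ncr1, and some of these fits also ended that of Crtam.

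Inhibitory checkpoint genes rose almost throughout. Of 15 tested, 13 were higher and 0 lower, with a median log2 change of 3.78. Lag3, which binds MHC class II, had 179, 165 and 175 CPM in LrNK against 7.7, 7.87 and 7.55 CPM in cNK (log2 change 4.57 ± 0.11, adjusted p = 2.2e-05). Cd200r1, the receptor for CD200, had 124, 65.9 and 112 CPM in LrNK against 4.12, 3.3 and 3.999 CPM in cNK (log2 change 4.796 ± 0.26, adjusted p = 0.000164). Cd200r2, a related receptor, had 127, 86.5 and 100.8 CPM in LrNK against 0.422, 0.784 and 0.579 CPM in cNK (log2 change 7.52 ± 0.30, adjusted p = 7.17e-05). The LrNK samples lay above the cNK samples for all 3. Cish, an intracellular brake on interleukin-15 signalling, was 13.7-fold higher, and Tigit, a receptor for CD155, 2.73-fold higher. In fits without 1 cNK sample the list had 9 to 10 higher and 0 lower.

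In the TNF receptor family and its signalling genes, 14 of 29 were higher and 1 lower (median 1.10). Tnfrsf25, the death receptor for TL1A, had 33.8, 30.8 and 19.2 CPM in LrNK against 5.27, 4.44 and 4.35 CPM in cNK. Tnfrsf1a, the main TNF receptor, had 207, 175 and 213 CPM in LrNK against 96.1, 99.5 and 96.7 CPM in cNK. Tnfrsf14, the receptor HVEM, had 12, 16.5 and 9.12 CPM in LrNK against 31.1, 30.4 and 30.5 CPM in cNK. The first 2 were higher and Tnfrsf14 lower in every LrNK sample. The list counts became 6 higher and 0 lower without 1 cNK sample. The call of Tnfrsf14 ended with any 1 cNK sample left out. So did the fit without LrNK sample 1 for Tnfrsf14.

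The granule genes did not move as a block: 4 of 18 were higher and 4 lower (median -0.10). Each share was 22.2%, against 10.9% higher and 9.83% lower over all genes. Gzmc, granzyme C, had 226, 242 and 229 CPM in LrNK against 2.78, 1.79 and 1.91 CPM in cNK (log2 change 6.83 ± 0.23, adjusted p = 5.17e-05). Gzmb, granzyme B, which triggers apoptosis in target cells, had 2861, 3601 and 2793 CPM in LrNK against 631, 716 and 585 CPM in cNK (log2 change 2.35 ± 0.19, adjusted p = 0.000705). LrNK samples exceeded cNK samples for both. Prf1, the pore-forming perforin, had 396, 337 and 276 CPM in LrNK against 1349, 1480.4 and 1310.1 CPM in cNK (log2 change -1.95 ± 0.17, adjusted p = 0.000946). Gzmm, granzyme M, had 6.04, 3.68 and 3.59 CPM in LrNK against 22.4, 23 and 24.2 CPM in cNK (log2 change -2.31 ± 0.27, adjusted p = 0.00267). Gzma, granzyme A, had 3294, 3792 and 3043 CPM in LrNK against 4917, 5450.3 and 4649.8 CPM in cNK, with separate groups but an adjusted p of 0.0904. Perforin and granzyme M were thus lower in every LrNK sample. Srgn, serglycin, the proteoglycan that packs granules, was 3.62-fold higher. Serpinb9 and Serpinb6b, inhibitors that protect the killer from its own granzymes, were 2.21-fold and 1.65-fold lower. With 1 cNK sample left out, the list counts were 4 higher and 2 lower. Any 1 cNK sample left out ended the calls of Serpinb6b and Serpinb9. The same held without LrNK sample 1 or 3 for Serpinb6b and Serpinb9.

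Cytokine and chemokine genes were higher as a group, 14 of 21 with 0 lower and a median log2 change of 2.74. Ifng, interferon gamma, had 159, 553 and 334 CPM in LrNK against 124, 117 and 115 CPM in cNK. Tnf, tumour necrosis factor, had 33.4, 182 and 159 CPM in LrNK against 5.87, 6.3 and 5.59 CPM in cNK. Il2, interleukin-2, had 3.74, 7.72 and 4.94 CPM in LrNK against 0.277, 0.151 and 0.28 CPM in cNK. All LrNK samples were above all cNK samples for each, and sample 2+4 held the highest Ifng value. Csf1, the macrophage growth factor, had 31.8, 37.2 and 40.2 CPM in LrNK against 1.85, 1.44 and 1.27 CPM in cNK. Csf2, GM-CSF, had 6.13, 13.9 and 5.87 CPM in LrNK against 1.94, 0.921 and 1.68 CPM in cNK. Xcl1, which attracts cross-presenting dendritic cells, had 453, 1422 and 836 CPM in LrNK against 108, 99.4 and 98 CPM in cNK. The LrNK samples were again all higher. Ccl1 was 84-fold higher. Il1b, a cytokine of myeloid cells, had 35, 39.5 and 109 CPM in LrNK against 0.408, 0.303 and 0.355 CPM in cNK. Cxcl2 was given above. Of 19 annotated neutrophil and monocyte markers, 6 passed the filter on low counts, and all 6 were higher. A gene near 0 in cNK passes that filter only through its LrNK counts, so their direction was largely set by the filter. The whole list summed to 491, 401 and 374 CPM in LrNK and 3.52 to 5.08 CPM in cNK. Most of that LrNK sum was Mmp9, and without it the sums were 68.2, 44.8 and 144 CPM in LrNK and 3.44 to 5.02 CPM in cNK. The part of such cells was not tested, and without 1 cNK sample their list gave 3 to 4 higher and 0 lower. The summed immediate-early genes described below were also highest in sample 2+4. The cytokine and chemokine list gave 8 to 10 higher and 0 lower without 1 cNK sample. Each fit with 1 cNK sample less ended the calls of Csf2, Ifng and Il2. So did the fit without LrNK sample 3 for Ifng.

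Among receptors and transducers of IL-2, IL-7 and IL-15 signalling, 8 of 18 were higher and 1 lower (median 0.51). Socs2, a feedback inhibitor of cytokine signalling, had 126, 88.8 and 112 CPM in LrNK against 14.8, 11.6 and 16.5 CPM in cNK. Socs1, a relative that blocks Janus kinases, had 134, 240.1 and 136 CPM in LrNK against 32.1, 31.1 and 29.7 CPM in cNK. Jak1, the kinase shared by these receptors, had 782, 577 and 535 CPM in LrNK against 1941, 1968 and 1952 CPM in cNK. Both inhibitors were higher and Jak1 lower in every LrNK sample. The survival kinase Pim2 was 2.14-fold higher. The list counts were 5 higher and 1 lower when 1 cNK sample was left out.

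In the list for IL-12, IL-18, IL-21 and interferon signalling, 9 of 18 were higher and 5 lower (median 0.27). Il18r1, the interleukin-18 receptor, had 81.6, 79.5 and 60.2 CPM in LrNK against 615, 578 and 626 CPM in cNK (log2 change -2.95 ± 0.17, adjusted p = 0.000199). Its accessory chain Il18rap had 203, 141 and 145 CPM in LrNK against 966, 909 and 1039 CPM in cNK (log2 change -2.50 ± 0.16, adjusted p = 0.00031). Both chains were lower in every LrNK sample. Il21r, the interleukin-21 receptor, had 238, 409.9 and 216 CPM in LrNK against 24.7, 29.1 and 27.1 CPM in cNK (log2 change 3.52 ± 0.31, adjusted p = 0.001). Ifngr2, a chain of the interferon gamma receptor, had 42.3, 6.84 and 31.3 CPM in LrNK against 1.78, 0.949 and 1.55 CPM in cNK and was 19.5-fold higher. Its lowest LrNK value was in sample 2+4, as for the hepatocyte and Kupffer cell sums below, and the part of such cells was not tested. Il12rb1, a chain of the interleukin-12 receptor, was 2.92-fold higher. Downstream of interleukin-12, Tyk2 was 2.4-fold and Stat4 1.69-fold lower, whereas Il27ra was 1.6-fold higher. Fits that lacked 1 cNK sample gave 2 to 3 higher and 4 lower for the list. The call of Il27ra ended with any 1 cNK sample left out, and some of these fits also ended that of Ifngr2.

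Transforming growth factor beta, which supports the resident program, is modulated by secreted proteases of the HTRA family. Htra3 had 39.1, 39.2 and 68.8 CPM in LrNK against 0.772, 0.633 and 0.878 CPM in cNK and Htra1 25.5, 16.3 and 11 CPM in LrNK against 0.597, 0.674 and 0.71 CPM in cNK. LrNK samples were above cNK samples for both, by 68-fold and 28.1-fold. Thbs1, thrombospondin, an activator of latent TGF-beta also made by myeloid cells, had 1 cNK count in all and 5.38, 8.41 and 9.63 CPM in LrNK, a ratio of 1538 (95% interval from counting error 275 to 60782). Tgfbr1, the signalling receptor chain, was 2.24-fold higher, while the transducers Smad3 and Smad4 were 2.29-fold and 1.9-fold lower. The list gave 6 higher and 2 lower of 20 (median 0.28), and 5 higher and 1 lower without 1 cNK sample. In the main fit that is 30% and 10%, against 10.9% and 9.83% over all genes, so the lower share is near the background. Any 1 cNK sample left out ended the call of Smad4.

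Immediate-early genes, which are induced within minutes by receptor signals and also by tissue dissociation, were higher in 18 of 25 with 0 lower, and the median log2 change was 2.88. Atf3 had 87.6, 356 and 544 CPM in LrNK against 1.88, 0.976 and 1.08 CPM in cNK. Dusp1, a phosphatase of MAP kinases, had 1097, 5157 and 3309 CPM in LrNK against 104, 107 and 142 CPM in cNK. Jun, a subunit of AP-1, had 1319.8, 3492 and 2306 CPM in LrNK against 323, 333 and 386 CPM in cNK. The lowest LrNK value was in sample 1 for the summed list (12796, 46920.1 and 27567 CPM against 4393 to 4909 CPM in cNK) and the highest in sample 2+4. The organ of each sample goes with its group, so an effect of tissue handling cannot be told apart from the cell type. Of 15 heat-shock genes, 4 were higher and 1 lower (median 0.41), or 26.7% and 6.67% against 10.9% and 9.83% over all genes. Hspa1a, the inducible Hsp70, had 225, 135 and 290.5 CPM in LrNK against 11.7, 8.84 and 3.06 CPM in cNK, and its near copy Hspa1b, with which it may share reads, a log2 change of 3.76. Hsp90aa1, the inducible Hsp90, had 25.5, 30.3 and 34.6 CPM in LrNK against 512, 493 and 349 CPM in cNK and was 14.2-fold lower, against the other called members. Without 1 cNK sample the immediate-early list gave 9 to 10 higher and 0 lower and the heat-shock list 4 higher and 1 lower.

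Interferon-stimulated genes were higher in 10 of 27 with 0 lower (median 0.61). Isg15, a ubiquitin-like antiviral protein, had 40.3, 57.9 and 70.8 CPM in LrNK against 19, 12.8 and 10.02 CPM in cNK. Isg20, an exonuclease, had 8.72, 12.4 and 39 CPM in LrNK against 3.44, 2.998 and 2.24 CPM in cNK. Oas2, a sensor of double-stranded RNA, had 8.93, 6.55 and 30.6 CPM in LrNK against 0.524, 0.303 and 0.149 CPM in cNK. The LrNK samples were higher than cNK for all 3. The whole list summed to 1396, 988 and 1524 CPM in LrNK and 981 to 1159 CPM in cNK, so sample 2+4 lay within the cNK range. The order of the LrNK sums, sample 3 highest and sample 2+4 lowest, was also that of the Kupffer cell and erythroid markers below. Oas2 followed this order, while Isg15 and Isg20 were lowest in sample 1. The part of Kupffer and erythroid cells was not tested. In fits without 1 cNK sample the list had 2 higher and 0 lower. Each fit with 1 cNK sample less ended the call of Isg20.

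Antigen presentation was described by a list for each class. For class I, 14 of 23 were higher and 0 lower (median 0.62), with small changes such as 0.74 on the log2 scale for B2m, the light chain of class I, and 0.63 for Psmb8, an immunoproteasome subunit. For class II, 9 of 12 were higher and 0 lower (median 4.16). H2-Aa, a class II alpha chain, had 986, 258 and 1497 CPM in LrNK against 19.8, 11.7 and 14 CPM in cNK. Cd74, the invariant chain, had 2054, 764 and 3714 CPM in LrNK against 61.5, 41.5 and 49.4 CPM in cNK. Ciita, the class II transactivator, had 84.9, 19.996 and 111 CPM in LrNK against 0.99, 0.619 and 1.08 CPM in cNK. Sample 3 held the highest and sample 2+4 the lowest LrNK value of H2-Aa and Cd74. The class II list summed to 6254, 2090.1 and 10618 CPM in LrNK and 173 to 223 CPM in cNK, and the dendritic cell markers to 3658, 1818 and 5067 CPM and 825 to 924 CPM. The dendritic cell list includes the class II genes H2-Aa and H2-Ab1, and without these it summed to 1291, 1051 and 1174 CPM in LrNK and 797 to 893 CPM in cNK, with sample 1 highest. Of its 15 tested members 9 were higher, or 6 to 7 higher and 0 lower without 1 cNK sample, and the part of such cells in the class II difference was not tested. Without 1 cNK sample, 1 higher and 0 lower were called in class I and 6 to 7 higher and 0 lower in class II. The calls of B2m and Psmb8 ended with any 1 cNK sample left out.

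In metabolism, 11 of 22 cholesterol genes were higher and 0 lower (median 0.91). Cyp51, a demethylase of the pathway, had 26.4, 26.2 and 34.7 CPM in LrNK against 8.96, 8.21 and 7.94 CPM in cNK. Srebf2, the master regulator, had 329.8, 322 and 248 CPM in LrNK against 94.9, 98.6 and 98.9 CPM in cNK. Both were higher in all LrNK samples. Of 19 glycolytic genes 9 were higher and 1 lower (median 0.51), led by Hk2, a hexokinase (2.89), and Slc16a3, the lactate exporter (2.35). In LrNK, Hk2 had 29, 10.3 and 30.1 CPM and Slc16a3 35.7, 21.5 and 48 CPM. Both were lowest in sample 2+4, as the hepatocyte and Kupffer cell sums below were, and the part of such cells was not tested. The lower gene was Pfkp, the platelet phosphofructokinase (-1.70). Oxidative phosphorylation gave 5 higher and 0 lower of 37 (median 0.30), and 13.5% higher is near the 10.9% over all genes. In the haem and antioxidant list 3 of 14 were higher and 1 lower, or 21.4% and 7.14% against 10.9% and 9.83% over all genes. Slc40a1, the iron exporter ferroportin, was 11.5-fold lower, and the ferritin chains Fth1 and Ftl1 were 3.31-fold and 3.36-fold higher. Without 1 cNK sample, 4 to 5 higher and 0 lower were called for cholesterol, 4 to 5 higher and 1 lower for glycolysis and 0 higher and 0 lower for oxidative phosphorylation. Any 1 cNK sample left out ended the calls of Fth1 and Ftl1.

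Cytosolic ribosomal protein genes gave 7 higher and 1 lower of 48 (median 0.43), 14.6% and 2.08% against 10.9% and 9.83% over all genes. The lower gene was Rpl12, a protein of the large subunit, with 79.2, 147 and 83.8 CPM in LrNK against 756, 783 and 732 CPM in cNK (log2 change -2.77 ± 0.30, adjusted p = 0.00204). Samples labelled CD8KO showed 59.95 and 106 CPM in LrNK against 773, 829 and 710.3 CPM in cNK, so the LrNK samples were low under both labels. The higher ones changed little, such as Rps9 (0.63), Rpl13 (0.56) and Rpl3 (0.53) on the log2 scale. With 1 cNK sample left out 0 higher and 1 lower were called. Each fit with 1 cNK sample less ended the calls of Rpl13, Rpl3 and Rps9.

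Cell cycle genes showed 1 higher and 1 lower of 29 (median -0.19), namely Pcna, the replication clamp (1.04), and Stmn1, a microtubule destabiliser (-1.44), so the share called was below that over all genes. In the BCL-2 family, 8 of 16 were higher and 0 lower (median 0.55). Bcl2a1d, a pro-survival member, had 27.1, 44.7 and 83.7 CPM in LrNK against 2.62, 2.16 and 2.17 CPM in cNK. Its near copies Bcl2a1a and Bcl2a1b had log2 changes of 3.59 and 3.21, and the 3 may share reads. Pmaip1, the pro-apoptotic NOXA, was 5.96-fold higher. Without 1 cNK sample the BCL-2 list gave 1 higher and 0 lower and the cell cycle list 0 higher and 0 lower. The calls of Bcl2a1a, Bcl2a1b, Pcna, Pmaip1 and Stmn1 ended with any 1 cNK sample left out. The same held without LrNK sample 3 for Stmn1.

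**Figure D3:**
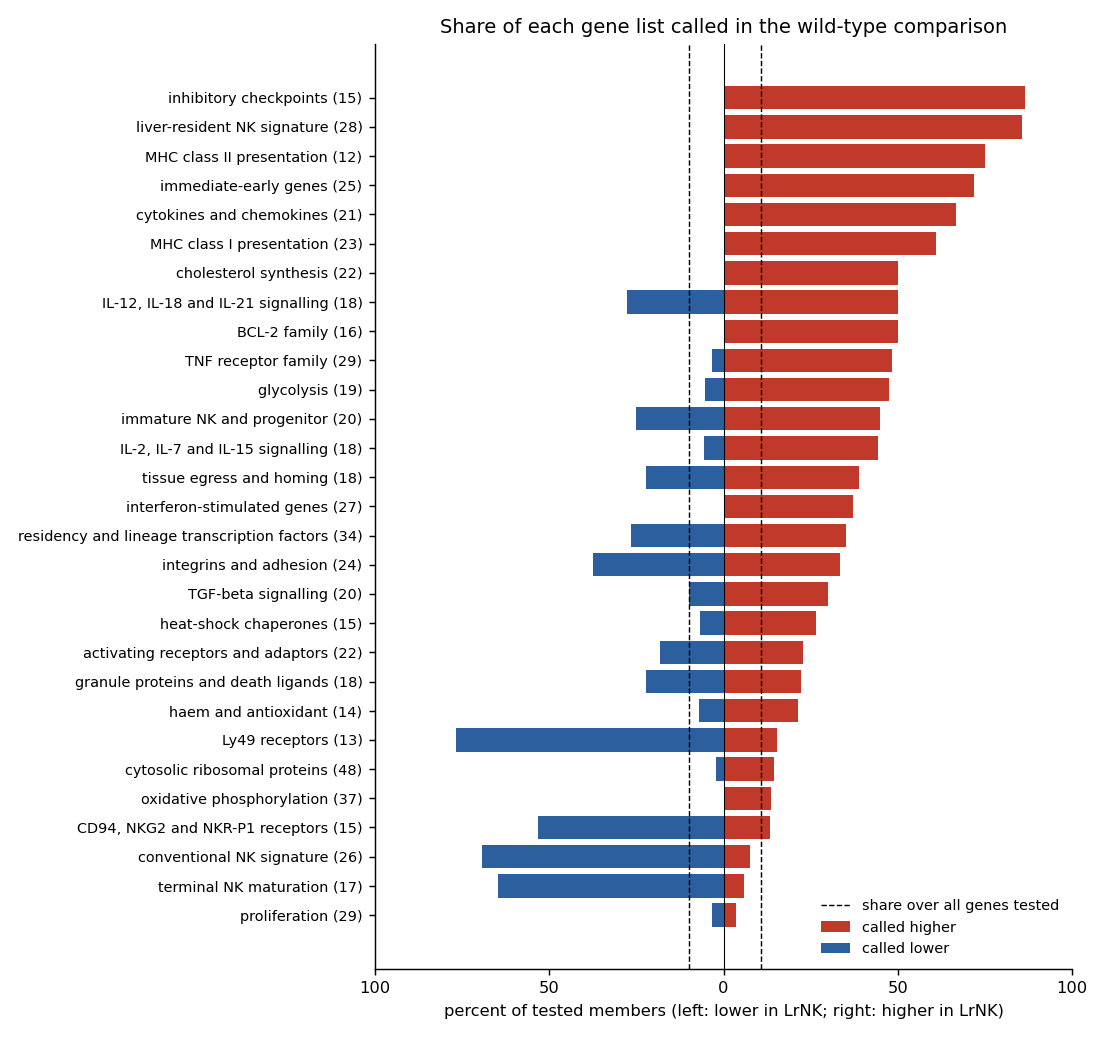
Percent of the tested members (number in brackets) of each gene list with at least 10 tested members, the lists of other cells left out, called higher (right) or lower (left) in LrNK than in cNK, with dashed lines at the shares over all genes tested, 10.9% and 9.83%. Among the lists drawn, the checkpoints, resident signature and class II lists reach furthest to the right, and the Ly49, conventional and terminal maturation lists furthest to the left.

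Markers of other liver and blood cells were measured in the same way, since a sort can carry such cells or their RNA. A gene near 0 in cNK was tested only if its LrNK counts passed the filter, which tilts such lists toward higher members. Hepatocyte markers, 12 of 25 without cNK counts, were higher in 14 of 18 tested. Their median log2 change was 8.31, or 6.26 with genes at 0 in cNK taken at the floor of 3 counts. All 25 summed to 1031, 586 and 1707 CPM in LrNK and 95.6 to 124 CPM in cNK. Most of that sum was Apoe, an apolipoprotein that macrophages make too, and without it the sums were 169, 65.6 and 163 CPM in LrNK and 3.4 to 5.34 CPM in cNK. Kupffer cell and macrophage markers were higher in 4 of 15 and lower in 1 (26.7% and 6.67%). Their sums were 2639, 783 and 4521 CPM in LrNK and 349 to 472 CPM in cNK. Most of the LrNK sums came from Lyz2, lysozyme (1844, 520.3 and 3532 CPM in LrNK against 16.3, 12 and 16.1 CPM in cNK). Without Lyz2 they were 795, 262 and 989 CPM in LrNK and 337 to 455 CPM in cNK, with sample 2+4 below every cNK sample. Erythroid markers were higher in 6 of the 7 tested, out of 12 annotated (sums 322, 187 and 1175 CPM and 22.5 to 26.8 CPM). In the Kupffer cell and erythroid lists sample 3 was highest, sample 1 next and sample 2+4 lowest among the LrNK samples, also without Lyz2 and without Hbb-bs (erythroid sums 181, 122 and 725 CPM). Among the hepatocyte markers other than Apoe, samples 1 and 3 were close and sample 2+4 was lowest. Leaving out 1 cNK sample, the hepatocyte list gave 6 to 8 higher and 0 lower, the Kupffer cell list 2 higher and 1 lower, the erythroid list 3 higher and 0 lower, the B cell list 0 to 1 higher and 0 lower and the endothelial list 2 higher and 0 lower. B cell markers were higher in 3 and lower in 0 of 17, with a median log2 change of -0.94. They summed to 335, 252 and 378 CPM in LrNK and 188 to 207 CPM in cNK. Most of that was Ighm, with 301, 223 and 343 CPM in LrNK against 171, 165 and 175 CPM in cNK. Cd79b had 9.8, 7.68 and 8.71 CPM in LrNK against 1.89, 1.58 and 1.94 CPM in cNK, whereas Ms4a1, encoding CD20, was at 0, 0.299 and 0 CPM in LrNK. The higher share, 17.6%, compares with 10.9% over all genes. Endothelial markers were higher in 4 of 11, and stellate cell markers in 0 of 6. The whole stellate cell list still summed to more in every LrNK sample, 16.5, 8.29 and 9.48 CPM against 3.92 to 4.19 CPM in cNK. Of its members, Dcn and Lum were at 0 CPM in every LrNK sample. Of neutrophil genes, Ly6g, Lcn2, Ltf, Mpo and Elane were at 0 CPM in every LrNK sample, while Csf3r, the G-CSF receptor, had 33.5, 10.8 and 63.4 CPM in LrNK against 0.917, 0.44 and 0.579 CPM in cNK and Cd177, a neutrophil surface protein, 2.44, 2.12 and 11.3 CPM in LrNK against 0, 0 and 0 CPM in cNK. Other innate lymphoid cell genes gave 2 higher and 2 lower of 7. Beyond the lists and genes named here, the part of these cells in the 3414 calls was not tested.

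**Figure D4:**
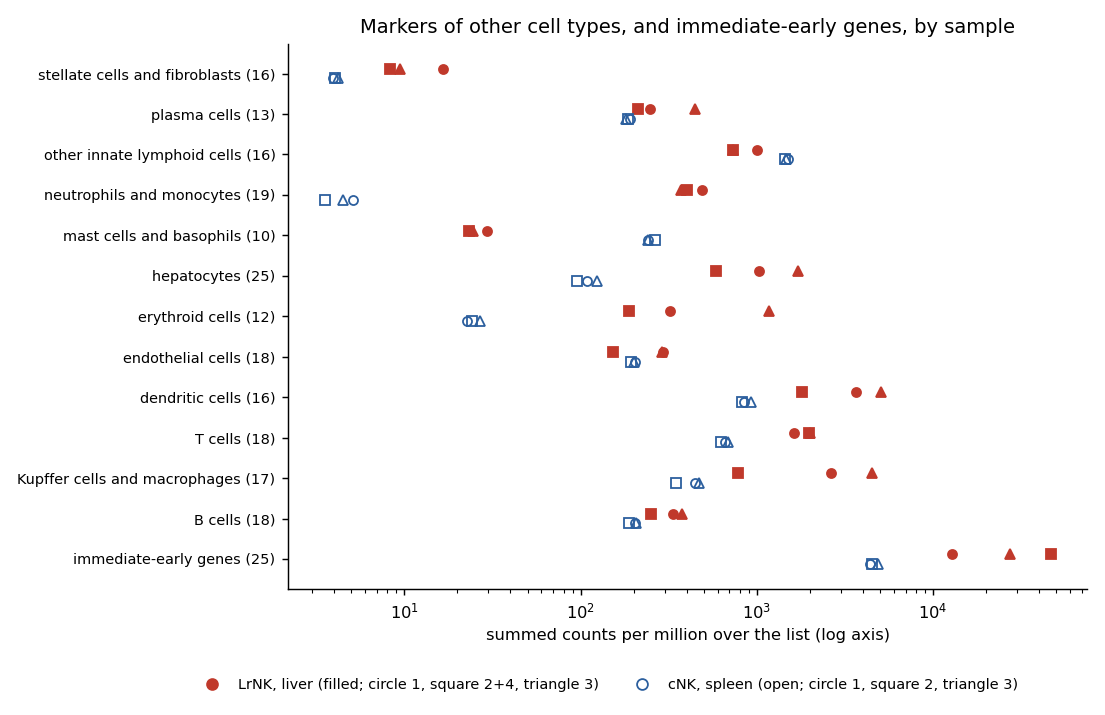
Summed CPM (log axis) of each marker list of other cells and of the immediate-early genes, in each wild-type sample: filled symbols are LrNK and open symbols cNK, with the same shape for the same sample number. LrNK sample 3 is highest for the Kupffer cell and erythroid lists, and sample 2+4 is highest for the immediate-early genes.

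The same comparison in the 5 samples labelled CD8KO, which come from other libraries, gave 2735 genes higher and 2069 lower of 17795 tested (27%). Of the 1779 higher wild-type calls tested there, 1744 had the same direction and 1376 were called higher; of the 1596 lower ones, 1538 had the same direction and 1004 were called lower. The same direction was thus found for 97.2% of the wild-type calls, against 78.6% of the 16202 genes tested under both labels. Cd8a, the gene behind the CD8KO label, was itself checked. It was at 20.5, 20.1 and 20.5 CPM in LrNK against 0.568, 0.578 and 0.561 CPM in cNK with the wild-type label, and at 41.6 and 43.7 CPM in LrNK and 87.3, 85.9 and 109 CPM in cNK labelled CD8KO. The labelled deletion therefore does not show as missing Cd8a counts, and the libraries are called here by their label only.

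A test of whether the LrNK to cNK difference itself differed between the labels, in a fit of all 4 groups, called 8 of 19287 genes (0.0415%), with 1669 at an unadjusted p under 0.05. They were Cd8a, Cd3g, Klra5, Htra3, Klra9, Klri2, Gzma and Bach1, and the difference was larger with the wild-type label, as a signed log2 change, for all but Bach1. Bach1, a repressor of haem oxygenase that was named after its values were seen, had 61.4, 59.2 and 63.9 CPM in LrNK against 53.6, 52.2 and 51.2 CPM in cNK with the wild-type label, and 174 and 163 CPM against 48.4, 54.7 and 56.3 CPM with the CD8KO label, so the LrNK samples labelled CD8KO stood highest. This count depended on the fit: voom gave 3, DESeq2 337, and the fit without LrNK wild-type sample 2+4 gave 645.

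**Figure D5:**
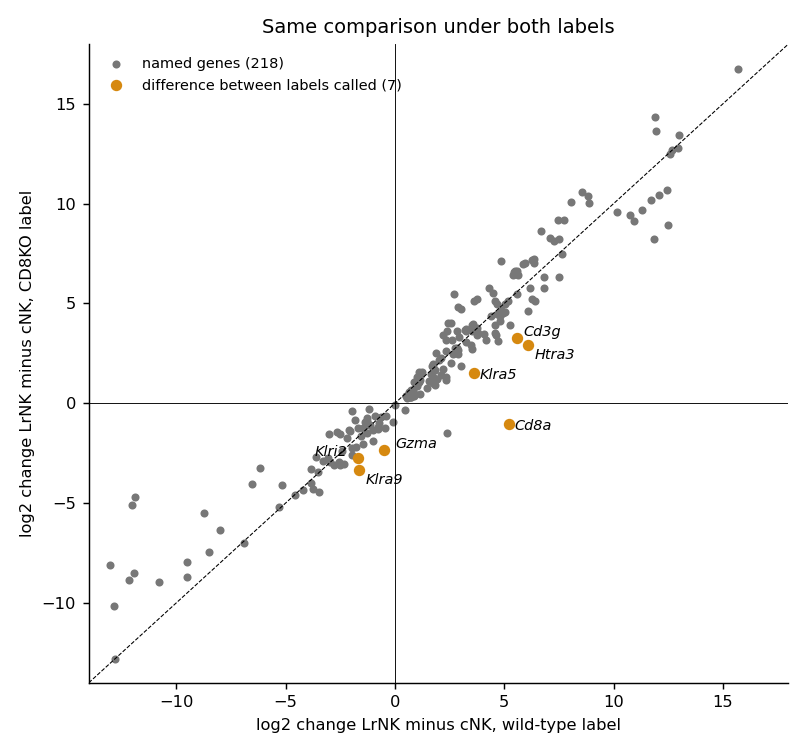
Log2 change of each named gene, LrNK minus cNK, with the wild-type label (horizontal) and the CD8KO label (vertical); orange points are the named genes whose difference between the labels passed the test, and the dashed line marks equal changes. Most genes lie near the line, and Cd8a lies far below it.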

How the data were processed

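RNA of sorted cells was sequenced, and the authors deposited 1 file of read counts per gene and library, whole numbers with the same 54532 Ensembl identifiers, of which 54495 matched GENCODE M21 for symbols. HISAT2 2.1.0 and GRCm38 were used per the submitters' processing notes; which program counted reads, with which annotation and strand setting, is not given in the sources used here. Groups came from the cell type and genotype labels. Libraries of a group with a chi-square per degree of freedom under 4, a limit set after the values were seen, were summed (LrNK wild type 2 and 4, LrNK CD8KO 2 and 3).

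Genes passing filterByExpr (minimum count 10, minimum total 15) were tested on the 6 wild-type samples with edgeR's quasi-likelihood test (edgeR 4.0.16, R 4.3.3; TMM scaling; a mean for each group), and a gene was called at a Benjamini-Hochberg adjusted p under 0.05 over all tested genes. Log2 changes are given ± SE. Alternatives used limma 3.58.1 (voom with sample weights), DESeq2 1.42.0, other size factors, no filter, a replicate block, all 4 groups and samples left out. Named genes were the 12 largest called rises and falls (average log2 CPM at least 2, groups not overlapping), up to 4 per list and direction, a fixed panel, and the 10 smallest p per direction. Some named genes are not reported here. Scripts were tested on simulated data. The members and lists were chosen with earlier results of these data known. Depth was 30578631 to 72716020 counts per library; intervals and floors are at 95% and 3 counts and cover counting error only.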

Additional observations from a re-analysis of the deposited data

Results flagged for a closer look

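For 7 of the named genes the difference between LrNK and cNK itself differed between the wild-type and CD8KO labels, by the interaction term of the edgeR quasi-likelihood fit of all 4 groups with Benjamini-Hochberg adjustment over 19287 genes. Values are the wild-type log2 change minus the CD8KO one, ± SE. Cd8a differed by 6.28 ± 0.22 (adjusted p = 7.82e-07), with the values by sample given above. Cd3g differed by 2.31 ± 0.20 (adjusted p = 0.00174), as LrNK samples labelled CD8KO had 179 and 178 CPM and cNK samples 17.8, 23.3 and 18.7 CPM. Klra5 differed by 2.11 ± 0.22 (adjusted p = 0.00577), with 38 and 27.4 CPM in LrNK and 11.7, 13.2 and 11.8 CPM in cNK labelled CD8KO. Htra3 differed by 3.19 ± 0.41 (adjusted p = 0.0277), with 6.85 and 6.14 CPM and 0.885, 1.12 and 0.786 CPM. The LrNK samples labelled CD8KO were below every wild-type LrNK sample for Cd3g, Klra5 and Htra3, and above them for Cd8a.

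The other 3 genes had lower values in LrNK than in cNK under both labels, and the gap was wider under CD8KO. Klra9 differed by 1.72 ± 0.14 (adjusted p = 0.00169), with 29.8 and 29.4 CPM in LrNK and 343, 313 and 331 CPM in cNK labelled CD8KO. Klri2 differed by 1.11 ± 0.14 (adjusted p = 0.027), with 88.2 and 83.5 CPM and 617, 603 and 676 CPM. Gzma differed by 1.89 ± 0.23 (adjusted p = 0.0248), with 909 and 1074 CPM and 5717, 5345 and 5508 CPM. Cd8a counts go against the label, and the sets also differed in Xist, the RNA of the inactive X chromosome. LrNK libraries labelled CD8KO had 94.9 to 136 CPM and cNK ones 0.247, 265 and 815 CPM. No wild-type library exceeded 1.9 CPM. The Y-linked gene Ddx3y fell to 3.13 CPM in cNK library 3 labelled CD8KO, against 92 to 143 CPM in wild type. The sex of the cells thus differed between some libraries, and its part was not tested. What else separates the 2 sets is not known.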

How the results depend on the processing

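The counts of called genes rest on all 6 samples. Leaving out 1 sample at a time gave 600 to 2571 higher and 421 to 4285 lower genes, the lowest without a cNK sample and the highest without LrNK sample 2+4, and 599 to 622 of the higher and all of the lower calls made without a cNK sample were among the reported ones. Leaving out LrNK samples 1 and 3, with the last LrNK sample assumed to vary like cNK, gave 5553 higher and 5973 lower. A fit of all 4 groups gave 2664 lower. The other settings stayed within 1.5 times: DESeq2 size factors, no filter on low counts, DESeq2, voom, and libraries 2 and 4 kept separate, for both directions, and the 4-group fit for higher genes. The median log2 change over all genes was -0.30 with voom and -0.27 with the replicate block, against -0.08. The share of calls that were higher, 52.6%, ranged from 37.5% to 59.0%.

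The number of genes whose difference differed by label was 337 with DESeq2, 3 with voom, 68 with all libraries separate, 6 with a replicate block, and 5 to 645 with 1 sample left out; these alternatives of leaving out and separating were chosen after seeing the data. With a replicate block by the labels' numbers, 1016 genes were higher and 785 lower. Same-numbered samples showed no shared deviation (correlations -0.001, -0.117 and -0.081), and other pairs ranged from -0.053 to 0.14. With 3 samples per group such correlations cannot exclude a pairing. Of the 218 named genes that were called, 163 kept their call in all 6 fits with 1 sample left out, 55 lost it without at least 1 cNK sample and 10 without at least 1 LrNK sample. Tbx21, at 0.00 on the log2 scale, ranged from -0.42 (without LrNK sample 2+4, edgeR adjusted p = 0.0461) to 0.15 (without LrNK sample 3). It was 0.53 without LrNK samples 1 and 3 together. Depth limits the genes that have counts in 1 group only, whose folds are lower bounds and cover counting error only.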

Other observations

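Genes of antibody, haemoglobin and antigen receptor chains also differed between the groups. Igha, the heavy chain of IgA, had 10.6, 7.98 and 120.4 CPM in LrNK against 0.583, 0.055 and 0 CPM in cNK, with most of it in LrNK sample 3, and Igkc, the kappa light chain, had 11.8, 7.76 and 51.7 CPM in LrNK against 4.06, 2.21 and 2.86 CPM in cNK. Hbb-bs, a beta globin of red cells, had 141, 65 and 450.1 CPM in LrNK against 0.422, 0.44 and 0.579 CPM in cNK, and again sample 3 was highest and sample 2+4 lowest in LrNK. Among T cell receptor genes, Trac, the alpha constant region, was 6.77-fold higher and Trdc, the delta constant region, 3.89-fold lower, with 28.6, 25.7 and 14.1 CPM in LrNK against 92.2, 86.3 and 104 CPM in cNK. Apoe, an apolipoprotein of hepatocytes and macrophages, had 862, 521 and 1544 CPM in LrNK against 106, 92.2 and 119 CPM in cNK. Arg1, an arginase of hepatocytes, macrophages and some innate lymphoid cells, had 11.3, 5.37 and 6.38 CPM in LrNK against 0.772, 0.536 and 0.803 CPM in cNK. All of these calls are from edgeR's quasi-likelihood test of the wild-type samples. Any 1 cNK sample left out ended the calls of Arg1, Igha and Igkc.

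Xist, the RNA of the inactive X chromosome, had 0.282, 0.707 and 1.9 CPM in LrNK against 0.0291, 0.248 and 0.299 CPM in cNK and an adjusted p of 0.242.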
